A study of Rattus norvegicus with 9 samples.

Results

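Subunit genes of the high-voltage-activated calcium channels were followed in the thalamus of young male Wistar rats eating chow or powder. The 10 genes, of 14217 measured under a single symbol, were Cacna1a, Cacna1b, Cacna1c, Cacna1d, Cacna1e, Cacnb1, Cacnb2, Cacnb3, Cacnb4 and Cacna2d1, taken as a named list. Every probe set that the array's annotation assigns to exactly 1 of these symbols was kept, which gave 21 probe sets of the 31042 rat probe sets measured. All 21 were tested, and none was removed by a filter on low values. There were 4 arrays from rats on chow, a solid feed that has to be chewed, and 5 from rats on powdered feed. All rats were male Wistar, began at 3 weeks of age, had powder for 2 preparatory days and then the assigned feed for 8 days, under a light cycle of 12 hours on and 12 hours off. Each sample is also labelled as 5 weeks old. The labels count 10 rats and do not say which rat gave which sample, so the p-values measure how far these 9 samples spread, and some of that spread may be technical.

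High-voltage-activated calcium channels open when a neuron is strongly depolarised and let calcium in, which triggers transmitter release at terminals and signals to the nucleus from the cell body. Each channel has a pore-forming alpha1 subunit that sets its type, an intracellular beta subunit that brings the pore to the membrane and tunes its gating, and an extracellular alpha2delta subunit that promotes surface expression. In the thalamus these channels act beside low-voltage T-type channels in setting firing and release, and in mice, mutations of Cacna1a or Cacnb4 cause absence seizures, which involve thalamus and cortex.

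Whole-array facts that bear on the values are few. Array medians ran from 7.3907 to 7.3964 log2 units under chow and from 7.3978 to 7.4019 under powder, and no further scaling was applied. For most probe sets the deposited values are nearly constant across arrays. A probe set is called compressed here when its 9 values span less than 0.01 log2 units, which held for 84.4% of all rat probe sets and for 17 of the 21 calcium channel probe sets (81%). The compressed calcium channel probe sets spanned 0.000315 to 0.00176, so a difference on them has a test result but next to no size. Relay neuron markers ranged from bright to dim, and no detection limit could be set. The brightest, the thalamic transcription factor Tcf7l2 on 1377156_at, read 11.5 to 12.0 under chow and 12.0 to 12.1 under powder. On 1379815_at Tcf7l2 read 7.58 to 7.97 under chow and 8.04 to 8.21 under powder. The Tcf7l2 probe sets differed in direction, with chow minus powder at -0.261 on 1377156_at, -0.297 on 1379815_at, 0.206 on 1394497_at and 0.00662 on 1378048_at. The last Tcf7l2 probe set was compressed. The median over the 12 uncompressed relay probe sets was -0.149. Rora on 1380478_at had a mean above only 16.1% of rat probe sets. On 1379397_at its mean lay above 91.6%, with a difference of 0.22 (limma adjusted p = 0.187). Chow 1 stood apart in its markers. Over 7 uncompressed striatal probe sets (6 of 7 listed genes were measured), the mean deviation from the 9-array mean was 0.934 on chow 1, between -0.123 and -0.0044 on the other chow arrays, and between -0.179 and -0.0781 on the powder arrays. Over 12 uncompressed relay neuron probe sets (9 of 11 genes) the same score was -0.406 on chow 1, between -0.0641 and 0.176 on the other chow arrays, and between -0.0212 and 0.0906 on the powder arrays. The member counts and the differences of Cacna1b, Cacnb2 and Cacnb4 are therefore also given without chow 1.

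Of the 21 calcium channel probe sets, 5 were higher and 2 lower under chow and 14 did not pass the test, which was limma over all 31042 rat probe sets with a Benjamini-Hochberg adjusted p under 0.05. That is 33.3%, against 34.6% of all rat probe sets (17.9% higher, 16.7% lower), so the share called is near the background and is no result about these genes. Chow and powder arrays were fully separated on 6 of the 21, against 29.9% of all rat probe sets. The median difference was 2.63e-05 over the 21 and 5.00e-05 over all rat probe sets. Without chow 1, 4 probe sets were higher and 2 lower, against 3805 and 4301 of all 31042 rat probe sets. Both rescalings of the arrays moved the split. It became 14 higher and 1 lower with quantile-normalized arrays, and 18 higher and 2 lower when each array's median was subtracted. The split of all 31042 rat probe sets moved too, to 15610 higher and 1854 lower and to 27206 and 2141 in the same order. Among the 4 uncompressed probe sets, 1 of Cacna1b, 2 of Cacnb2 and 1 of Cacnb4, 1 was higher and 1 lower, against 54.9% of all 4849 uncompressed probe sets (16.1% higher, 38.8% lower). Their median absolute difference was 0.21 on the log2 scale and that of all uncompressed probe sets 0.19. Among the 17 compressed ones, 5 were called, against 30.9% of all compressed probe sets. With each gene represented by its probe set of highest mean, 2 of the 10 genes were higher (Cacnb4 and Cacna1e) and 2 lower (Cacna1b and Cacna1c), against 32.9% of all 14217 genes (14.2% higher, 18.8% lower). Without chow 1, 2 genes were higher and 1 lower.

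**Figure D1:**
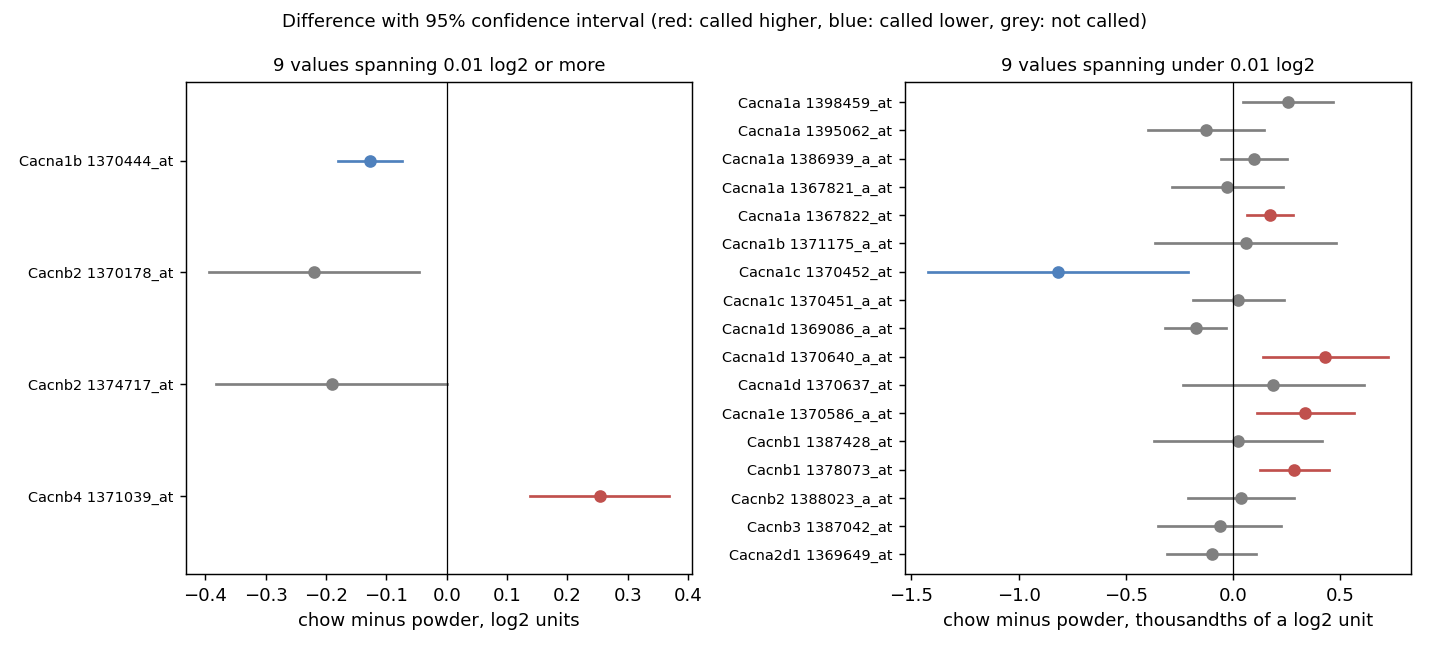
Chow minus powder difference with its 95% confidence interval from limma for each of the 21 calcium channel probe sets. The left panel, in log2 units, holds the 4 uncompressed probe sets, where Cacnb4 lies at 0.25 and Cacna1b at -0.13, and the right panel, in thousandths of a log2 unit, holds the 17 compressed ones. Red marks probe sets called higher, blue lower and grey not called.

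Among the pore-forming subunits, Cacna1b was the one with a difference of measurable size. It encodes the pore of the N-type channel, which carries much of the calcium that drives release at many terminals. On probe set 1370444_at the values were 8.85, 8.89, 8.87 and 8.84 on chow 1 to 4, against 8.96, 8.996, 9.003, 9.05 and 8.94 on powder 1 to 5. Every chow array lay below every powder array. Cacna1b averaged 8.86 ± 0.025 on chow arrays and 8.99 ± 0.041 on powder arrays (SD, n = 4 and 5), a difference of -0.13 ± 0.023 on the log2 scale (SE), or 0.916-fold, with limma adjusted p = 0.00821. The 95% confidence interval was -0.181 to -0.0735. Without chow 1 the difference was -0.121 (adjusted p = 0.0231), and over all 9 single omissions it stayed between -0.139 and -0.112, called each time. The direction was the same after both rescalings. In bulk tissue, fewer cells of a type and less RNA per cell cannot be told apart. A second Cacna1b probe set, 1371175_a_at, was compressed and differed by 6.03e-05 (adjusted p = 0.808).

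The letters upstream of Cacna1b are shown because it is the pore gene whose level differed, and RefSeq promoters were matched for 8 of the 10 genes. The window is the 250 bases before the RefSeq start in GRCr8, 5′ to 3′ on the gene's strand, with every match to a searched motif in capitals.
Cacna1b (chr3:27944286-27944535, minus strand): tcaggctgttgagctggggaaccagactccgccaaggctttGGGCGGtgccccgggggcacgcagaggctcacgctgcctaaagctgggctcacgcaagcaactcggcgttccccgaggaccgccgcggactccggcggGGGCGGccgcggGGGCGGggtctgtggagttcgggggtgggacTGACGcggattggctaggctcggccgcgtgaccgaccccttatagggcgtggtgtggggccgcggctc
The 5 motifs searched, on both strands, were the GC box GGGCGG, the CRE core TGACG, the full CRE TGACGTCA (which contains the core), the E-box CACGTG and the TATA box TATAAA. This window held 3 GC boxes and 1 CRE core. Over all 33469 promoter windows of that length, 30.5% held a GC box, 18.2% a CRE core, 1.59% a full CRE, 5.59% an E-box and 12.9% this TATA box. A match is a description of the letters only.

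The other pore genes were measured on compressed probe sets alone. Cacna1c, the pore of an L-type channel that signals from cell body and dendrites, read 8.0651, 8.0658, 8.0665 and 8.0661 on chow 1 to 4 on probe set 1370452_at, against 8.0667, 8.0666, 8.0669, 8.0666 and 8.0667 on powder 1 to 5. All chow arrays lay below all powder arrays, and the difference of -0.000815 ± 0.00026 (SE) was called (limma adjusted p = 0.046). Its direction reversed after both rescalings, to 0.0166 with quantile normalization and 0.00576 with medians subtracted. The call held without chow 1 or chow 3 and was lost without any 1 of the other 7 arrays, where the adjusted p reached 0.0974. Its other probe set, 1370451_a_at, differed by 2.63e-05 (adjusted p = 0.834).

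Cacna1a, the pore of the P/Q-type channel that dominates release at many central synapses, had 5 probe sets, and 1 of them, 1367822_at, was higher by 0.000174 (adjusted p = 0.0264). The other 4 ranged from -0.000125 to 0.000258, with adjusted p from 0.0602 to 0.871. Cacna1d, the pore of the other neuronal L-type channel, which opens at less depolarised voltages, was higher on 1370640_a_at by 0.00043 (adjusted p = 0.0344), while its brighter probe set 1369086_a_at stood at -0.000174 (adjusted p = 0.0616) and 1370637_at at 0.00019 (adjusted p = 0.426). Cacna1e, the pore of the R-type channel, had 1 probe set, higher by 0.000338 (adjusted p = 0.0328), with groups that overlapped. These 3 calls were not stable. After quantile normalization the Cacna1a call (adjusted p = 0.205) and the Cacna1e call (adjusted p = 0.116) were lost. Without chow 1, none of them passed, and the Cacna1a call held in 4 of 9 omissions, the Cacna1d call in 3 and the Cacna1e call in 2. The highest adjusted p was 0.0638 for Cacna1a, 0.0778 for Cacna1d and 0.0722 for Cacna1e.

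The beta subunits held 3 of the 4 uncompressed probe sets, 1 of Cacnb4, which was called, and 2 of Cacnb2, which were not. Cacnb4, whose beta subunit pairs with presynaptic pores and is the gene mutated in the lethargic mouse, was higher under chow. Its probe set 1371039_at read 7.26, 7.38, 7.51 and 7.33 on chow 1 to 4, against 7.07, 7.14, 7.09, 7.16 and 7.13 on powder 1 to 5. Every chow array lay above every powder array, with chow 3 highest and chow 1 nearest to the powder arrays. Cacnb4 averaged 7.37 ± 0.11 on chow arrays and 7.12 ± 0.037 on powder arrays (SD, n = 4 and 5), a 1.19-fold difference of 0.25 ± 0.049 on the log2 scale (SE; 95% confidence interval 0.138 to 0.369), with limma adjusted p = 0.0103. Without chow 1 it was 0.291 (adjusted p = 0.0102), without chow 3 it was 0.205 (adjusted p = 0.0097), and it was called in all 9 single omissions. Both rescalings kept the direction. Cacnb4 was measured by this 1 probe set only. Its mean lay above that of 43.9% of rat probe sets, against 84.7% for Cacna1b on 1370444_at and 88.4% for Cacnb2 on 1370178_at.

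Cacnb2 is a beta subunit best known from the heart, and some of its forms slow the inactivation of the channels they join. Its mean was lower under chow, a difference that did not pass the test. Probe set 1370178_at read 8.91, 9.11, 9.33 and 9.10 on chow 1 to 4, against 9.31, 9.38, 9.31, 9.34 and 9.32 on powder 1 to 5. Chow 1, chow 2 and chow 4 lay below all powder arrays, and chow 3 lay among them. The means were 9.11 ± 0.17 on chow arrays and 9.33 ± 0.030 on powder arrays (SD, n = 4 and 5), with a difference of -0.22 ± 0.074 (SE, 0.859-fold, limma adjusted p = 0.0547). The second uncompressed probe set, 1374717_at, had a similar pattern. It read 7.92, 8.16, 8.39 and 8.17 on chow 1 to 4, against 8.34, 8.38, 8.37, 8.32 and 8.34 on powder 1 to 5, with chow 3 again the one chow array not below the powder arrays. Its difference was -0.19 ± 0.082 (SE, adjusted p = 0.105). Without chow 3 both probe sets were called, at -0.291 (adjusted p = 0.0116) and -0.267 (adjusted p = 0.0218), and without chow 1 they were at -0.152 (adjusted p = 0.0814) and -0.112 (adjusted p = 0.164). Of these probe sets, 1370178_at alone was called with array medians subtracted (-0.213, adjusted p = 0.0221) and when the test was limited to uncompressed probe sets (-0.22, adjusted p = 0.0276). The remaining Cacnb2 probe set, 1388023_a_at, was compressed and differed by 3.76e-05 (adjusted p = 0.794).

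**Figure D2:**
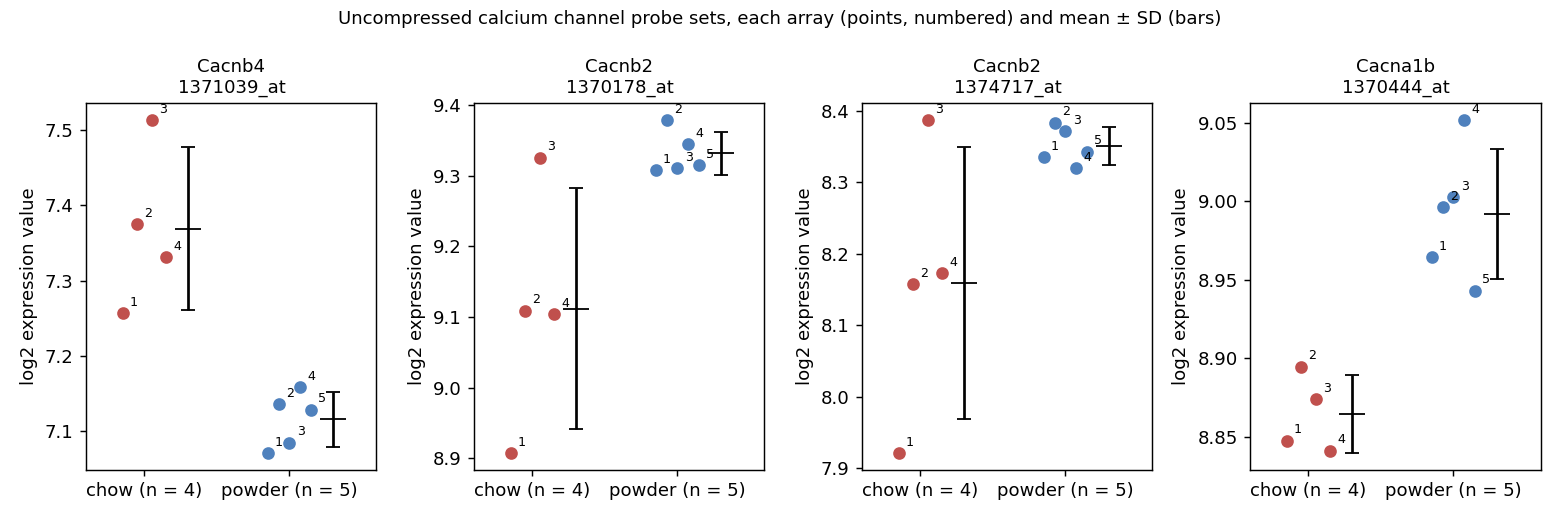
Log2 expression value of the 4 uncompressed calcium channel probe sets on each array, chow left of powder, with points numbered by replicate and bars for mean ± SD (n = 4 and 5). Cacnb4 is higher and Cacna1b lower on every chow array than on every powder array, while for both Cacnb2 probe sets chow 3 lies at the level of the powder arrays.

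Cacnb2 has 2 starts in the RefSeq table, and both upstream windows are shown because Cacnb2 is the gene that Cacnb4 is set against and its starts differ in base composition. They are the 250 bases before each start in GRCr8, 5′ to 3′, with capitals for the same motifs.
Cacnb2 upstream start (chr17:82472965-82473214, plus strand): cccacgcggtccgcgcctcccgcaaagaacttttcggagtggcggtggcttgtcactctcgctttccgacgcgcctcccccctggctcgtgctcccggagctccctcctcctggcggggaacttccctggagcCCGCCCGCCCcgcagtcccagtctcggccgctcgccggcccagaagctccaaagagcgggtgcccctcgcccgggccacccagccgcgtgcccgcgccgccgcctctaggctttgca
Cacnb2 downstream start (chr17:82596542-82596791, plus strand): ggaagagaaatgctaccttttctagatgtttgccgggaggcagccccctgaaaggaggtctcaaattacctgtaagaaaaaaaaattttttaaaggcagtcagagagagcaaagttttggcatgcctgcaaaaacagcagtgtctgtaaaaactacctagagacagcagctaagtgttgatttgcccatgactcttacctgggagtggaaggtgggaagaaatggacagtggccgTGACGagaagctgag
The upstream window had 73.2% G and C and held 2 overlapping GC boxes (read as CCGCCC on this strand), and the downstream window had 45.6% G and C and held 1 CRE core, against a median of 51.2% G and C over all windows. The probe sets were not assigned to either start.

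Whether Cacnb4 and Cacnb2 responded unequally to diet was tested on their gap. The Cacnb4 difference contributes to this gap by itself, so the test does not show that Cacnb2 changed. The per-array difference of Cacnb4 (1371039_at) minus Cacnb2 (1370178_at) averaged -1.74 ± 0.069 in the chow group and -2.22 ± 0.028 in the powder group (SD, n = 4 and 5). Only its shift between diets carries meaning, because levels of different probe sets are not comparable. The shift was 0.47 log2 units, with values from -1.81 to -1.65 on the chow arrays, all above the -2.24 to -2.19 of the powder arrays. The two-sided exact permutation test gave p = 0.00794, the smallest that 126 splits allow, and this was the 1 pair of genes of one role that could be tested (adjusted p = 0.00794). Without chow 1 the shift was 0.442 (exact p = 0.0179, again the smallest possible). That p was fixed in advance, because the gap was already fully separated by diet. The same test between the 2 uncompressed Cacnb2 probe sets found a shift of -0.029 (exact p = 0.175), so an unequal response of the 2 was not detected. The gap between them stayed within 0.931 to 0.986 under chow and 0.94 to 1.02 under powder.

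**Figure D3:**
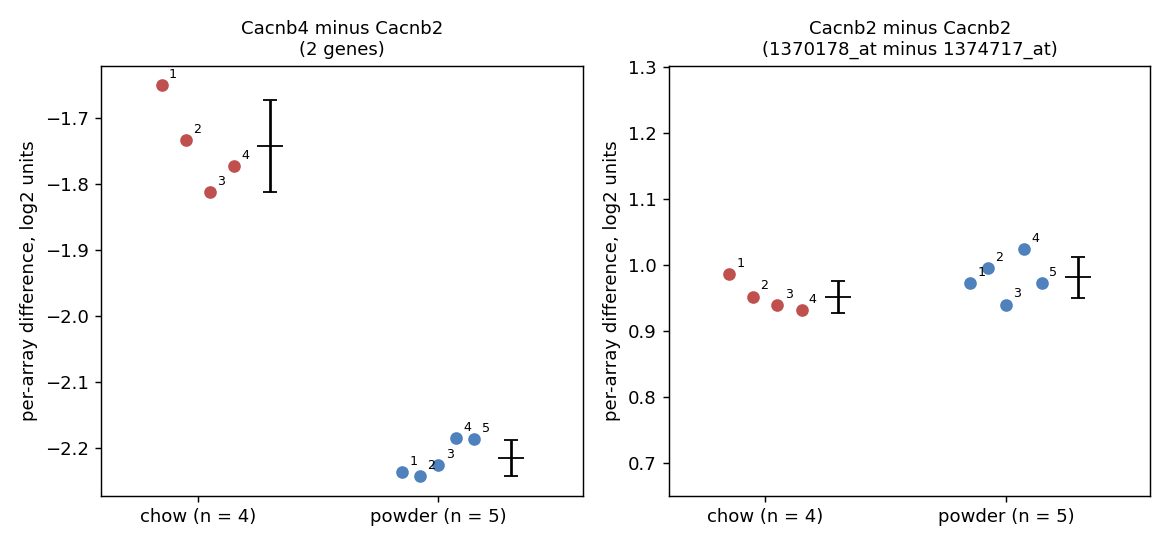
Per-array difference in log2 units of Cacnb4 minus Cacnb2 (left) and between 2 Cacnb2 probe sets (right), drawn with the same vertical extent, with numbered points for arrays and bars for mean ± SD (n = 4 and 5). The Cacnb4 minus Cacnb2 values do not overlap between diets (-1.81 to -1.65 under chow and -2.24 to -2.19 under powder), whereas those between the Cacnb2 probe sets do.

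Within the chow group, Cacnb4 (1371039_at) and Cacnb2 on 1370178_at had the same order of arrays. Both were lowest on chow 1, followed by chow 4, chow 2 and chow 3, whereas Cacnb2 on 1374717_at had chow 2 before chow 4. The relay neuron marker score had that order too (-0.406, -0.0641, 0.103 and 0.176 in the same sequence). On the powder arrays the relay score ran in another order than either gene. On the chow arrays the compressed Cacnb2 probe set, 1388023_a_at, also had the shared order, and so did a compressed pore probe set, Cacna1a on 1395062_at. The Cacnb1 and Cacnb3 probe sets, all compressed, had other orders there, as did the remaining alpha1 probe sets and the alpha2delta probe set. The part of the markers in the Cacnb2 and Cacnb4 values was not tested. Of the 16 relay marker probe sets, 0 were called higher and 1 lower under chow by limma, namely a Tcf7l2 probe set. Of the 9 striatal probe sets, 1 was called higher and 0 lower. That 1 was a compressed Rgs9 probe set (0.000369, limma adjusted p = 0.0223), and 0 of the 7 uncompressed ones were called. Over all rat probe sets 17.9% were called higher and 16.7% lower, and over the uncompressed ones 16.1% and 38.8%.

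**Figure D4:**
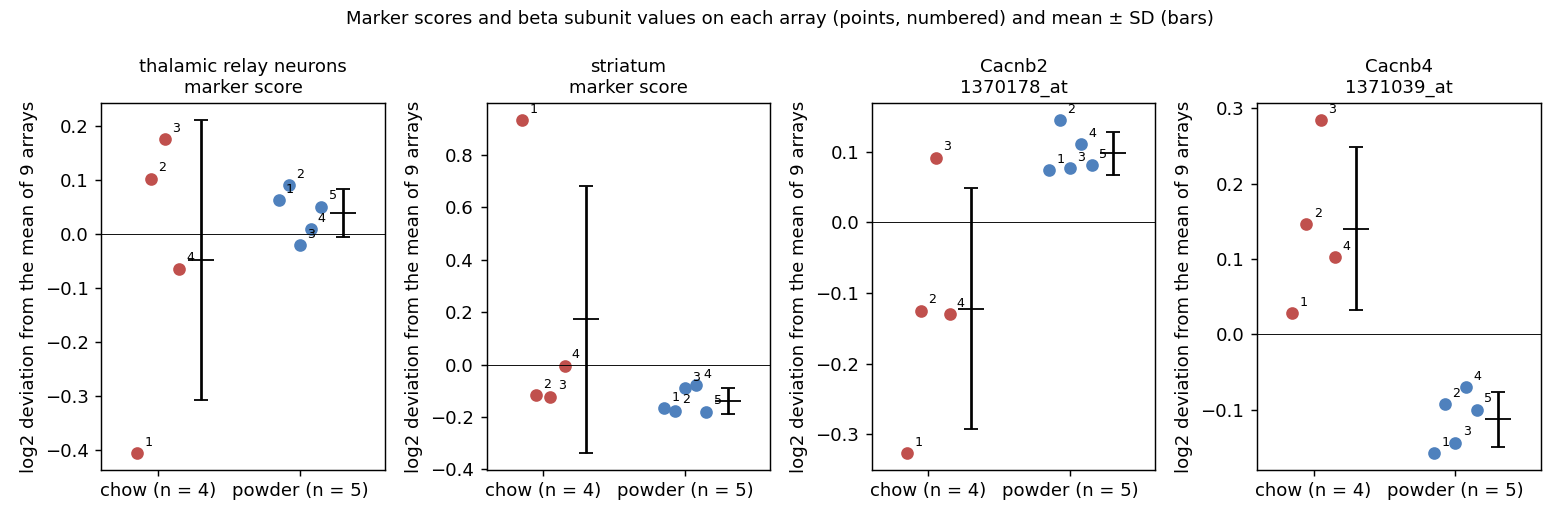
Mean log2 deviation from the 9-array mean for 12 relay neuron and 7 striatal marker probe sets, and the same deviation for Cacnb2 and Cacnb4, on each array (numbered points) with mean ± SD (bars, n = 4 and 5). Chow 1 is lowest in relay markers (-0.406) and in Cacnb2, and stands at 0.934 in striatal markers.

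The remaining beta subunits were compressed. Cacnb1, the beta subunit first known from skeletal muscle and also present in brain, was higher on 1378073_at, with 7.4739, 7.4739, 7.4736 and 7.4737 on chow 1 to 4 against 7.4734, 7.4735, 7.4735, 7.4736 and 7.4735 on powder 1 to 5. The arrays did not overlap by diet, the difference was 0.000286 (adjusted p = 0.0197), and it was called in all 9 single omissions. Its brighter probe set, 1387428_at, differed by 2.32e-05 (adjusted p = 0.922). Cacnb3, the beta subunit often found with N-type pores, differed by -6.22e-05 (adjusted p = 0.709).

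The alpha2delta group was represented by Cacna2d1, the target of the drugs gabapentin and pregabalin. It read between 9.0582 and 9.0586 on the chow arrays and between 9.0584 and 9.0586 on the powder arrays. The difference was -9.82e-05 (adjusted p = 0.404, compressed), and it became 0.0277 and 0.00647 after quantile normalization and median subtraction.

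The rest of the channel family and its partners were counted from 5 lists, whose counts stand against 17.9% of all rat probe sets called higher and 16.7% lower, and 16.1% and 38.8% of the uncompressed ones. Of 17 probe sets for 14 other voltage-gated calcium channel genes (T-type pores, further alpha2delta and the gamma genes), 6 were higher and 1 lower, and 5 were uncompressed. The split was the same after quantile normalization and became 13 and 1 with medians subtracted. The 2 uncompressed calls were both gamma genes, which act mainly as AMPA receptor partners. Cacng4 was at 7.74 ± 0.11 under chow and 7.35 ± 0.064 under powder (0.39, adjusted p = 0.0044), called in all 9 omissions. Cacng2 was at 8.89 ± 0.16 under chow and 9.14 ± 0.052 under powder (-0.25, adjusted p = 0.0367), and its call was lost without any 1 powder array (adjusted p up to 0.0749).

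At the release site, 4 of 48 probe sets for active zone and fusion genes were higher and 4 lower, with 13 uncompressed, where 34.6% of all rat probe sets were called in either direction. The split became 28 and 1 after quantile normalization, 38 and 3 with medians subtracted, and 2 and 2 without chow 1. For all 31042 rat probe sets the split became 15610 and 1854, 27206 and 2141, and 3805 and 4301 in the same order. Syt1, the calcium sensor of fast release, was higher by 0.42 (adjusted p = 0.0409). Apba1, an adaptor that binds N-type pores and the fusion machinery, was lower by a difference of -0.21 (adjusted p = 0.0417), and Snap25, a fusion protein that also binds these channels, by -0.022 (adjusted p = 0.0364). Each of these 3 calls was lost in at least 7 of the 9 omissions, chow 1 among them, with an adjusted p of up to 0.0921.

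Among 34 probe sets for genes that bind or turn over the channel at the surface, 6 were higher and 6 lower, with 8 uncompressed, a share near the 34.6% of all rat probe sets. The split became 15 and 2 with quantile-normalized arrays, and 29 and 2 once medians were subtracted. Both rescalings also raised the number called higher over all 31042 rat probe sets, from 5558 to 15610 and 27206. Nedd4, a ubiquitin ligase of membrane proteins, was higher on 1 probe set (0.48, adjusted p = 0.00444), with 2 others at 0.25 and 0.12 that were not called. Ank2, the membrane scaffold ankyrin B, was called in both directions, at 0.38 on 1396612_at and -0.28 on 1373351_at. Fmr1, whose protein binds N-type channels, was lower (-0.25, adjusted p = 0.00591). The calls of Nedd4, Ank2 and Fmr1 held in all 9 single omissions.

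Neurotransmitter receptors close N-type and P/Q-type channels through G proteins of the Gi and Go class. Of 67 probe sets for that route, 19 were higher and 4 lower, and of its 30 uncompressed ones 7 were higher and 3 lower. The shares over all rat probe sets were 17.9% and 16.7%, and over the uncompressed ones 16.1% and 38.8%. The split of the 67 became 28 and 3 with quantile-normalized arrays, and 45 and 4 once medians were subtracted. All 31042 rat probe sets gave 15610 and 1854, and 27206 and 2141, under those rescalings. The alpha subunit of Go, Gnao1, was at 10.5 ± 0.090 on chow arrays and 10.1 ± 0.081 on powder arrays (SD, n = 4 and 5; 0.37, adjusted p = 0.00468). Gnai2 (0.35, adjusted p = 0.0101) and Gnai1 (0.31, adjusted p = 0.00644), both alpha subunits of Gi, were also higher. Rgs4, which speeds G protein shut-off, was higher on 1368506_at (0.35, adjusted p = 0.0187) and at -0.075 (not called) on 1368505_at. These 4 calls held in all 9 single omissions.

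Downstream of calcium entry, 19 of 87 probe sets were higher and 10 lower, and of 39 uncompressed ones 7 were higher and 5 lower. Against this stand 17.9% and 16.7% of all rat probe sets, and 16.1% and 38.8% of the uncompressed ones. The split of the 87 became 44 and 8 with quantile-normalized arrays, and 58 and 11 once medians were subtracted. Ppp3r1, the regulatory subunit of calcineurin, was higher (0.42, adjusted p = 0.0195), and Ryr3, a calcium release channel of internal stores, was lower (-0.40, adjusted p = 0.00323). Kcnma1, the calcium-activated BK potassium channel, was higher on 1369334_at (0.38, adjusted p = 0.00926), while 2 other probe sets stood at -0.37 and 0.13, neither called. Without chow 1 the last of these, 1370472_a_at, was called (0.236, adjusted p = 0.0426), the 1 omission of 9 where it was. The other, 1372929_at, was called lower with quantile normalization (-0.345, adjusted p = 0.0472) and with medians subtracted (-0.36, adjusted p = 0.0222). It was also called lower with only uncompressed probe sets tested (-0.366, adjusted p = 0.0284) and in 2 of 9 omissions. Kcnma1 was thus called in both directions under these settings. Shank1, a postsynaptic scaffold, was lower (-0.33, adjusted p = 0.0142). The calls of Ppp3r1, Ryr3, Kcnma1 on 1369334_at and Shank1 held in all 9 single omissions. Over the 5 lists, 54 probe sets were higher and 25 lower (43 and 20 without chow 1). The split became 121 and 15 with quantile-normalized arrays, and 183 and 21 once array medians were subtracted. All 31042 rat probe sets went from 5558 and 5195 (3805 and 4301 without chow 1) to 15610 and 1854, and to 27206 and 2141. The named genes of these lists kept their direction under both rescalings. The Snap25 call was lost under both, with a limma adjusted p of 0.249 for quantile normalization and 0.066 for medians subtracted.

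The genes whose uncompressed values followed Cacnb4 and Cacna1b most closely, the called subunits of largest difference in each direction, were found by the root mean square difference of mean-centred values over the 9 arrays, among 3432 probe sets of 1 symbol. Nearest to Cacnb4 were Ube2g1 (0.0457 log2 units), Pi4k2a (0.0463), the neuronal calcium sensor Vsnl1 (0.0479), Pank3 (0.0506) and Smarca2 (0.0513), against a median distance of 0.209. Nearest to Cacna1b were Gmcl1 (0.0141), Miga1 (0.0155), Mphosph8 (0.0205), Tnrc6a (0.0215) and Ddx3x (0.0253), against a median of 0.131. A probe set that moves little is nearer to any other such probe set, so the distances describe likeness on these arrays alone.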

How the data were processed

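Thalamic RNA (100 ng labelled with biotin, per the labels) was read on 9 single-colour arrays, 4 chow and 5 powder. The authors deposited a log2 value for every probe set on every array, ranging from 5.37 to 14.0. The log2 scale was read from that range. The software, background correction and normalization steps were not given in the sources used, and any centring or compression before deposit is unknown. Arrays give no read depth, so their number limits precision.

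After 57 control probe sets were left out, chow minus powder was fitted with limma 3.58.1 (lmFit, eBayes, no covariates) in R 4.3.3 over all 31042 rat probe sets, with Benjamini-Hochberg adjustment over all of them and a threshold of 0.05. Probe sets were named from the platform annotation, and 20826 had 1 symbol. Fits were tested on simulated data. The 10 genes, the partner and marker lists and the span limit of 0.01 were chosen with earlier results of these data known. Genes were named by rule: all 10 members, up to 4 called uncompressed genes of largest difference per partner list, and the 5 nearest genes to the most changed member in each direction. The alternatives were 2 rescalings, filters on compressed and on the 20% dimmest probe sets, a trended robust variance, a threshold of 0.1, a replicate block and omission of each array. Same-numbered arrays of both diets showed no consistent shared deviation and were not treated as pairs, though so few pairs cannot exclude a pairing. All columns were used.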

Additional observations from a re-analysis of the deposited data

Results flagged for a closer look

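Within each diet, 34 measures (the 21 calcium channel probe sets, 11 marker scores and 2 per-array differences) were searched for an array far from its group by Dixon's criterion, which chance meets in about 1 of 20 groups. It was met in 3 of 68 groups, all of them marker scores and none a calcium channel probe set. The striatal score was 0.934 on chow 1, against -0.123 to -0.0044 on the other chow arrays. The choroid plexus score, from 1 uncompressed probe set, was 1.2 on chow 3, against -0.1 to 0.118 on the other chow arrays. The score for vessels and meninges was 0.5003 on powder 1, against -0.113 to 0.0404 on the other powder arrays.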

How the results depend on the processing

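The shift between Cacnb4 and Cacnb2 kept direction and call under quantile normalization. With each array omitted, its direction and call were fixed in advance by the full separation of the diets. Cacnb4 (higher) and Cacna1b on 1370444_at (lower) kept direction and call with each array omitted and under all other alternatives except the replicate block. That block used 8 arrays (powder 5 left out). Same-numbered arrays showed no consistent shared deviation, with correlations of -0.306, 0.186, -0.344 and -0.164 over 4849 probe sets. Of the chow arrays, 0 of 4 matched best with their own number. So few pairs cannot exclude a pairing. Of all 31042 rat probe sets, limma under the block called 1 higher and 18 lower. Under the block limma called 0 higher and 0 lower of the member probe sets (4 at an unadjusted p under 0.05), of the member genes (3) and of the partner probe sets (88), with Cacnb4 at 0.256 (adjusted p = 0.0847), Cacna1b at -0.139 (0.0671) and 1 compressed Cacnb1 probe set at -3.14e-05. Member probe sets higher and lower were 5 and 2, and became 14 and 1 with quantile-normalized arrays and 18 and 2 once medians were subtracted. At a threshold of 0.1, 6 and 4 passed, and with only uncompressed probe sets tested 1 and 2, since 4 members were then left. Member genes, 2 and 2, became 7 and 2, 8 and 2, 3 and 4, and 1 and 2 in the same order. Partner probe sets, 54 and 25, became 121 and 15 with quantile-normalized arrays and 183 and 21 once medians were subtracted. With only uncompressed ones tested they became 24 and 20. All 31042 rat probe sets, 5558 and 5195, became 15610 and 1854 with quantile-normalized arrays and 27206 and 2141 once medians were subtracted. At the threshold of 0.1 they gave 7974 and 6763, and the 4849 uncompressed ones tested alone gave 865 and 2019. The 6 compressed differences that reversed under rescaling, by quantile normalization and then by medians, were Cacna1a at 0.00766 and 0.00645 (1395062_at) and at 0.00554 and 0.00655 (1367821_a_at), Cacna1c at 0.0166 and 0.00576, Cacna1d at 0.00866 and 0.0064, Cacnb3 at 0.0116 and 0.00651, and Cacna2d1 at 0.0277 and 0.00647. The median difference of all probe sets moved to 0.00348 and 0.00662, more than most compressed probe sets span. With 1 array omitted, members higher ranged from 2 to 4 and lower from 1 to 4, genes higher from 1 to 2 and lower from 1 to 3, and partner probe sets higher from 39 to 52 and lower from 17 to 30. All rat probe sets higher then ranged from 3661 to 4879 and lower from 3906 to 4843. The shift between Cacnb4 and Cacnb2 ranged from 0.442 to 0.496 and that between Cacnb2 probe sets from -0.0402 to -0.018. Compressed, uncalled probe sets changed sign there: Cacna1a 1367821_a_at (-8.96e-05 to 4.22e-05), Cacna1b 1371175_a_at (-6.08e-05 to 0.000181), Cacna1c 1370451_a_at (-7.17e-05 to 7.51e-05), Cacnb1 1387428_at (-0.000116 to 0.000115), Cacnb2 1388023_a_at (-7.01e-05 to 0.000108) and Cacnb3 (-0.000152 to 2.75e-05). Subtracting medians adds the same constant to the chow minus powder difference of every probe set. That constant is positive, because every chow array had a lower median than every powder array. The causes of the other changes were not tested, beyond the smaller number of probe sets or arrays where stated.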
